A study of Homo sapiens with 24 samples.

Results

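The p53 target genes described here are 33 listed genes, out of 58735 genes in the count files, that p53 is known to switch on directly. They were taken by symbol, and all 33 matched 1 gene identifier each. They were grouped loosely by known role, not by a value measured here, though the list was chosen with earlier results of these data known. The group names are broad. AEN is counted with DNA repair and NINJ1 with metabolism, though both act in cell death. TRIAP1, a survival protein, is counted with p53 feedback. p53 is a transcription factor that binds paired copies of a short sequence near its targets. It is kept low by the ubiquitin ligase MDM2, which is itself a target, so that the circuit holds its own brake. In pigment cells and melanoma, as elsewhere, its targets include genes that stop the cell cycle, repair DNA, sensitise cells to death signals and adjust metabolism.

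The RNA came from HT-144 cells, a human melanoma line established from a metastasis and cultured in RPMI-1640 medium with insulin, transferrin and selenium. Reverse transfection lasted 3 days. Antisense oligonucleotides (ASOs), single strands that pair with an RNA, were used at 5 nM, and pools of small interfering RNA (siRNA) at 50 nM. The targeting libraries were siSREBF1 (an siRNA pool against SREBF1) and a pair of ASOs against the same RNA, ASO-SREBF1-S1 and ASO-SREBF1-S4. The control libraries were mock, siNegative (a scrambled siRNA) and ASO-Neg (a control ASO). The product of SREBF1 is a transcription factor that drives lipid synthesis genes, and the series was made, by its title, to study the specific effects of an ASO that depletes it. Each group was 1 library of polyadenylated RNA from 1 cell line, sequenced on 4 lanes. Within a side every library got another reagent, and mock got no ASO or siRNA at all. The variation within a side, on which the p-values rest, therefore mixes variation among reagents with variation among cultures.

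Libraries held 12916478 to 47900277 counts assigned to genes, and ASO-SREBF1-S1 was the deepest. A level is given in CPM, read counts scaled to a common library size after TMM correction for composition, and 3 counts were worth 0.0626 to 0.232 CPM. SREBF1 itself (ENSG00000072310, chr17:17810399-17837002) fell from 233 ± 16.1 to 67.4 ± 11.3 CPM (mean ± SD, n = 3 libraries a side, edgeR adjusted p = 0.00164). All 12 melanoma markers checked, MITF, SOX10 and PMEL among them, reached at least 5 CPM. The summed level of 5 immune markers was 0.456 to 1.54 CPM. Of 6 fibroblast markers, only COL1A2 and LUM reached 5 CPM.

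The sequence that p53 recognises was looked for first, since it is what the members are known to share. The p53 response element consensus is 2 copies of the p53 decamer, and its reverse complement is the same pattern, so a search of one strand covered both. It was searched with 0 to 2 bases between the copies, at most 1 mismatch in all and none at the fixed C and G of either copy. The window was 2500 bases either side of the annotated start of each gene in GENCODE 44 on GRCh38. That start is the outermost 5′ end over all transcripts of the gene. Other transcripts, the main one included, may start elsewhere, and their starts were not searched separately. Of the 33 members, 8 held such a match (24.2%), against 1.68% of 20046 protein-coding genes. With no mismatch allowed there were 3 members (9.09%, against 0.125% of coding genes), and with up to 2 mismatches 15 members (45.5%, against 11.1%). The best match of 7 of the 8 is shown because these matches, with RRM2B's, are all the search returned for the members. RRM2B's match lay 2112 bases downstream of its start and is not printed. Each is on the strand of its gene, 5′ to 3′, and the capitals mark the 4-base core of each copy.
DDB2 chr11:47214979-47214999: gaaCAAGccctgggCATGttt
PLK2 chr5:58462274-58462293: aaaCATGcctggaCTTGccc
ZMAT3 chr3:179070188-179070207: aaaCAAGtccagaCATGcct
CCNG1 chr5:163437926-163437945: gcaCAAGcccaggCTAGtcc
EDA2R chrX:66638713-66638732: gaaCATGcctggaCGTGtcc
GADD45A chr1:67686775-67686794: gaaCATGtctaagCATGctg
GDF15 chr19:18373947-18373966: agaCCTGcccggaCATGtcc

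The first 3 of these had no mismatch. DDB2's lay in an exon 524 bases downstream of the annotated start, ZMAT3's in an intron 2018 bases downstream and PLK2's 2144 bases upstream. DDB2 also held an overlapping second match with 1 mismatch. The matches of CCNG1, EDA2R and GADD45A lay in introns, 366, 576 and 1584 bases downstream, and that of GDF15 lay 774 bases upstream. CDKN1A, MDM2, AEN and BTG2, picked with the measurements below known, had matches only with 2 mismatches, shown here for comparison. TRIM22 and TP53I3, the members with the largest log2 ratios below, had no match at up to 2 mismatches.
CDKN1A chr6:36676449-36676468: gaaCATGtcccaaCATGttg
MDM2 chr12:68808923-68808942: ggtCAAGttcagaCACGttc
AEN chr15:88621306-88621325: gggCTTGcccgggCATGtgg
BTG2 chr1:203303642-203303661: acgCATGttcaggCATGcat

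CDKN1A's printed match spanned the outermost annotated start of the gene, and it had another 1730 bases upstream of that start. The outermost start need not be that of its main transcript. MDM2's lay in an intron 756 bases downstream, AEN's 22 bases upstream of its start and BTG2's 1840 bases upstream. A match describes letters in the reference genome and does not show that p53 was bound there in these cells. In the comparison of targeting with control libraries below, the 8 members with a match at up to 1 mismatch had log2 ratios from -0.34 for CCNG1 to 0.46 for GADD45A. The other 25 ranged from -0.21 for NINJ1 to 0.83 for TRIM22. The 2 ranges overlapped over most of their length.

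**Figure D1:**
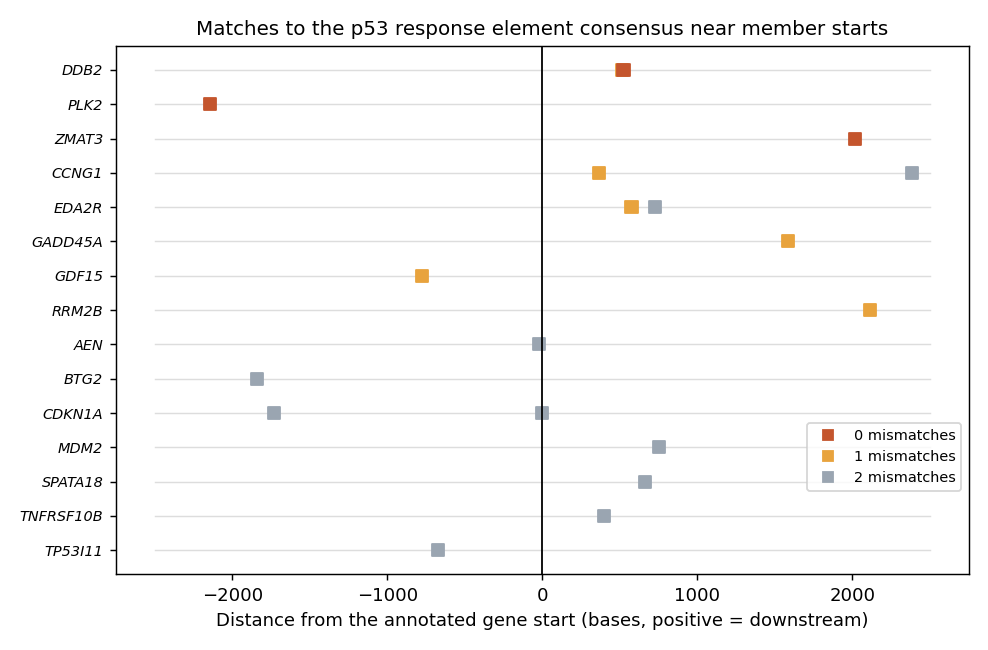
Matches to the p53 response element consensus near the annotated starts of members, one row per gene with any match at up to 2 mismatches. The horizontal axis is the distance in bases from the start, and colour gives the number of mismatches. Matches lie on both sides of the start, and DDB2, PLK2 and ZMAT3 are the 3 genes with none.

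All members were measured. Per kilobase of annotated exon, averaged over the 6 libraries, the highest levels were GDF15 at 85.7, CCNG1 at 82.3 and CDKN1A at 66.1 CPM per kilobase. The lowest were TIGAR at 0.229, FAS at 0.400 and TRIM22 at 0.476, with all annotated exons of a gene counted in its length. All 33 passed the filter on low counts. Exons shared with another gene on the same strand made up 18.4% of PHLDA3, 18.1% of TIGAR, 5.61% of TRIM22, 5.29% of MDM2 and 0.566% of FAS. These are shares of annotated exon length, not of reads. The values of those genes are uncertain for this reason, to an extent that is not known. The other 28 members shared none. Between the 4 lanes of a library, the coefficient of variation was at most 6.85% for CDKN1A and 52.5% for SPATA18, which has few counts.

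**Figure D2:**
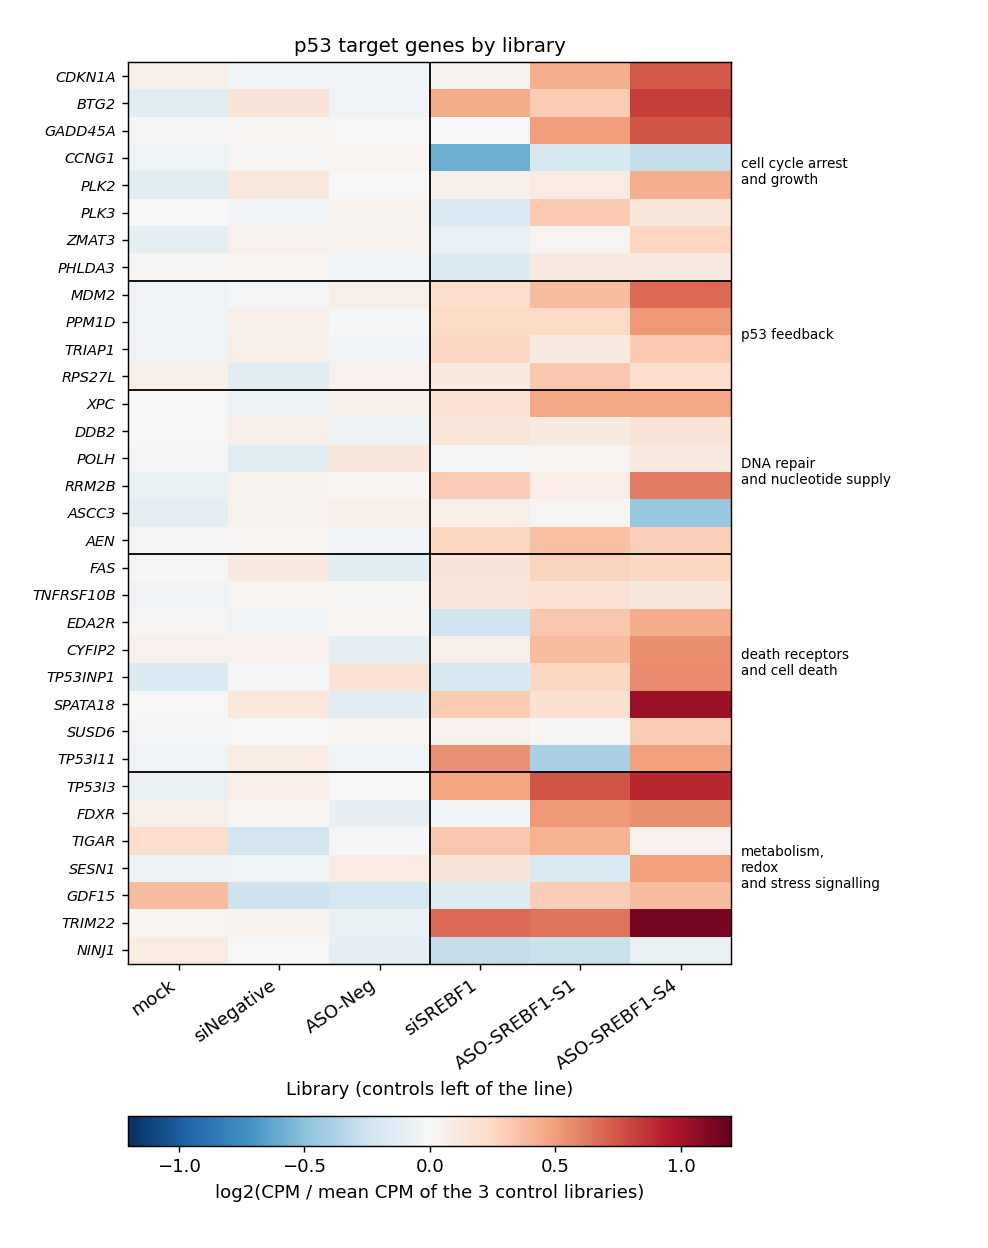
Level of each p53 target gene (rows, grouped by role) in each library (columns, controls left of the vertical line) as the log2 of its CPM over the mean CPM of the 3 control libraries. The ASO-SREBF1-S4 column holds the darkest red, TRIM22 and SPATA18 most of all, and CCNG1 is the clearest blue row in the targeting columns.

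With the 3 targeting libraries on one side and the 3 controls on the other, the first question was whether the members differed with SREBF1 targeting. Most p53 targets stood somewhat higher in the targeting libraries. TRIM22, TP53I3, SPATA18 and BTG2 had log2 ratios of 0.83, 0.72, 0.54 and 0.53, MDM2 and CDKN1A 0.44 each, and CCNG1 was lower at -0.34. The ratio was above 0 for 30 members and below 0 for CCNG1, NINJ1 and ASCC3, with a median of 0.23 over the members and 0.01 over all genes tested. No member passed an adjusted p of 0.05 in edgeR's quasi-likelihood test over 15123 genes, of which 0.0595% did. At an unadjusted p under 0.05, 16 members were higher, a background of 4.93% of genes, and 2 were lower, a background of 5.3%. The DESeq2 Wald test, which called 1.12% of genes, put 5 members past its adjusted p: TP53I3 (0.00591), TRIM22 (0.0248), MDM2 (0.0329), AEN (0.0427) and BTG2 (0.0492). Every targeting library lay above every control library for 15 members (8.86% of all genes) and below for CCNG1 alone (8.54%).

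**Figure D3:**
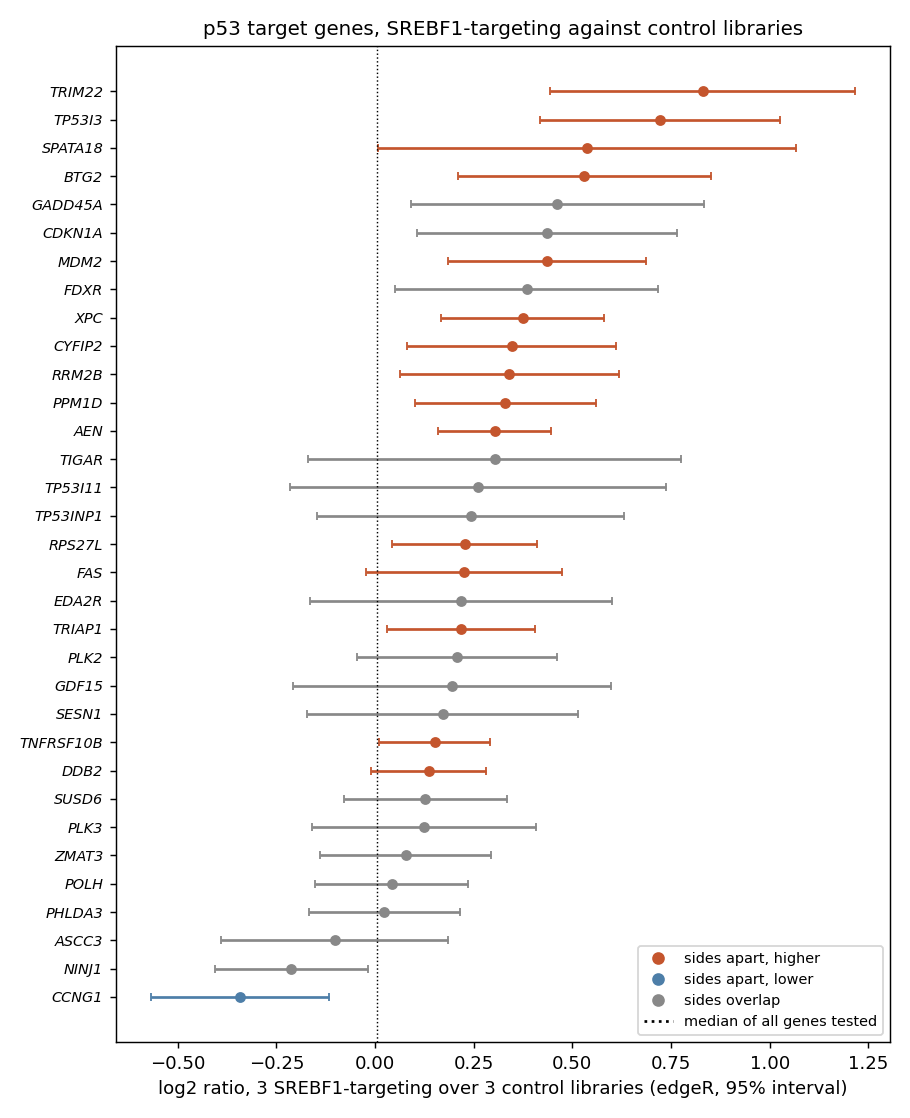
Log2 ratio of the 3 targeting over the 3 control libraries for each p53 target gene, with its 95% interval from edgeR, sorted by size. Colour marks genes whose libraries do not overlap between the sides, and the dotted line is the median of all genes tested, 0.01. TRIM22 (0.83) is at the top and CCNG1 (-0.34) at the bottom.

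Among the 8 genes of cell cycle arrest and growth, 3 were higher and CCNG1 lower at an unadjusted p under 0.05 (backgrounds 4.93% and 5.3%). Their median log2 ratio was 0.17. CDKN1A (ENSG00000124762, chr6:36676460-36687337) encodes p21, the inhibitor of cyclin-dependent kinases through which p53 stops the cycle. It stood at 176 CPM with mock transfection, 165 with siNegative, 164 with ASO-Neg, 174 with siSREBF1, 228 with ASO-SREBF1-S1 and 280.4 with ASO-SREBF1-S4. Only the ASO libraries were above the controls: siSREBF1 lay below mock, so the sides overlapped. The means were 168 ± 6.63 and 227 ± 53.3 CPM (± SD over n = 3 libraries a side). The log2 ratio was 0.44 with an SE of 0.15 (edgeR adjusted p = 0.344), and without ASO-SREBF1-S4 the ratio was 0.26.

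BTG2 (ENSG00000159388, chr1:203305491-203309602), an antiproliferative factor, stood at 21.5 CPM with mock transfection, 26.2 with siNegative, 22.8 with ASO-Neg, 32.0 with siSREBF1, 29.0 with ASO-SREBF1-S1 and 41.8 with ASO-SREBF1-S4. All 3 targeting libraries were above all controls (log2 ratio 0.53, SE 0.14, edgeR adjusted p = 0.263). GADD45A (ENSG00000116717, chr1:67685201-67688334), which responds to growth arrest and DNA damage, was at 16.8, 17.5 and 17.2 CPM in mock, siNegative and ASO-Neg, against 17.2, 24.4 and 29.1 in siSREBF1, ASO-SREBF1-S1 and ASO-SREBF1-S4. As for CDKN1A, siSREBF1 sat among the controls and both ASOs lay above them (log2 ratio 0.46, edgeR adjusted p = 0.37). Without ASO-SREBF1-S4 the GADD45A ratio was 0.30.

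CCNG1 (ENSG00000113328, chr5:163437569-163446151) encodes cyclin G1, which recruits a phosphatase to MDM2. It went the other way, at 276 CPM with mock transfection, 289 with siNegative, 291 with ASO-Neg, 190.2 with siSREBF1, 249.8 with ASO-SREBF1-S1 and 234 with ASO-SREBF1-S4. Every targeting library was below every control, siSREBF1 the most (log2 ratio -0.34, SE 0.099, edgeR adjusted p = 0.294). The 4 remaining genes of this group had log2 ratios of 0.02 for PHLDA3, an inhibitor of AKT, 0.08 for ZMAT3, an RNA-binding protein, and 0.12 and 0.21 for the polo-like kinases PLK3 and PLK2. Their sides overlapped in each case.

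All 4 genes of feedback on p53 were higher in every targeting library than in any control, as were 8.86% of all genes. All 4 had an unadjusted p under 0.05 (background 4.93%), with a median log2 ratio of 0.28. MDM2 (ENSG00000135679, chr12:68808177-68845544), the ligase that marks p53 for degradation, stood at 162 CPM with mock transfection, 164 with siNegative, 174 with ASO-Neg, 193 with siSREBF1, 216 with ASO-SREBF1-S1 and 267 with ASO-SREBF1-S4. ASO-SREBF1-S4 was the highest and siSREBF1 the nearest to the controls. The means were 167 ± 6.84 and 225 ± 37.5 CPM (± SD over n = 3 libraries a side). The log2 ratio was 0.44 with an SE of 0.11 (edgeR adjusted p = 0.244). PPM1D (ENSG00000170836, chr17:60600193-60666280), the phosphatase WIP1 that reverses p53 activation, was at 20.3, 22 and 20.8 CPM in mock, siNegative and ASO-Neg, against 24.7, 24.7 and 30.1 in siSREBF1, ASO-SREBF1-S1 and ASO-SREBF1-S4 (edgeR adjusted p = 0.317).

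The other feedback genes had smaller differences. TRIAP1 (ENSG00000170855, chr12:120443964-120446384), a small survival protein, was at 30.0, 32.6 and 30.3 CPM in mock, siNegative and ASO-Neg, against 36.8, 33.3 and 38.4 in siSREBF1, ASO-SREBF1-S1 and ASO-SREBF1-S4 (log2 ratio 0.22, edgeR adjusted p = 0.417). The gap between its sides was narrow, from siNegative to ASO-SREBF1-S1. RPS27L (ENSG00000185088, chr15:63125872-63158021), a ribosomal protein paralogue that binds MDM2, was at 103, 90.9 and 103 CPM in mock, siNegative and ASO-Neg, against 108, 124 and 115 in siSREBF1, ASO-SREBF1-S1 and ASO-SREBF1-S4 (log2 ratio 0.23, edgeR adjusted p = 0.377). For RPS27L the order of the targeting libraries differed, with ASO-SREBF1-S1 above ASO-SREBF1-S4.

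Of the 6 genes of DNA repair and nucleotide supply, 3 were higher and none lower at an unadjusted p under 0.05 (backgrounds 4.93% and 5.3%). Their median log2 ratio was 0.22. XPC (ENSG00000154767, chr3:14145147-14178621), which recognises damage for nucleotide excision repair, stood at 89.0 CPM with mock transfection, 85.4 with siNegative, 92.9 with ASO-Neg, 99.8 with siSREBF1, 123 with ASO-SREBF1-S1 and 123 with ASO-SREBF1-S4. The ASO libraries were level with each other and above siSREBF1, which was above all controls (log2 ratio 0.37, SE 0.091, edgeR adjusted p = 0.237). AEN (ENSG00000181026, chr15:88621337-88632281), an exonuclease that acts in p53-induced cell death and DNA degradation, was at 88.8 CPM with mock transfection, 89.0 with siNegative, 85.4 with ASO-Neg, 105 with siSREBF1, 112 with ASO-SREBF1-S1 and 107 with ASO-SREBF1-S4. Its targeting libraries were close together and clear of the controls, with means of 87.7 ± 1.99 and 108 ± 3.79 CPM (± SD over n = 3 libraries a side). The log2 ratio was 0.30 with an SE of 0.063 (edgeR adjusted p = 0.178).

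RRM2B (ENSG00000048392, chromosome 8), the p53-inducible subunit of ribonucleotide reductase, was at 58.2, 63.5 and 63.2 CPM in mock, siNegative and ASO-Neg, against 75.5, 65.3 and 94.2 in siSREBF1, ASO-SREBF1-S1 and ASO-SREBF1-S4. ASO-SREBF1-S4 stood far above the rest, and ASO-SREBF1-S1 was only just above the highest control (log2 ratio 0.34, edgeR adjusted p = 0.379). Without ASO-SREBF1-S4 the RRM2B ratio was 0.185. DDB2, the partner of XPC in damage recognition, had all targeting libraries above all controls by a small margin (log2 ratio 0.14). POLH, a polymerase that copies past ultraviolet lesions, and ASCC3, a helicase, overlapped between the sides (log2 ratios 0.04 and -0.10).

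Of the 8 genes of death receptors and cell death, 3 were higher and none lower at an unadjusted p under 0.05 (backgrounds 4.93% and 5.3%). Their median log2 ratio was 0.23. TNFRSF10B (ENSG00000120889, chromosome 8), a receptor for the death ligand TRAIL, was at 182, 192 and 189 CPM in mock, siNegative and ASO-Neg, against 208, 211 and 206 in siSREBF1, ASO-SREBF1-S1 and ASO-SREBF1-S4. The sides were apart by a narrow gap (log2 ratio 0.15, edgeR adjusted p = 0.447). FAS, the receptor for FAS ligand, was also apart between the sides, at 9.88 to 13 CPM over all libraries (log2 ratio 0.23). EDA2R, a receptor for ectodysplasin A2, overlapped (log2 ratio 0.22).

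CYFIP2 (ENSG00000055163, chr5:157266079-157395595), a subunit of the actin-regulating WAVE complex, was at 53.3, 53.5 and 47.9 CPM in mock, siNegative and ASO-Neg, against 53.8, 66.7 and 75.7 in siSREBF1, ASO-SREBF1-S1 and ASO-SREBF1-S4. siSREBF1 was above the highest control by less than 1 CPM, and the ASO libraries stood well above (log2 ratio 0.35, edgeR adjusted p = 0.349). SPATA18 (ENSG00000163071, chr4:52051304-52097299), which acts in mitochondrial quality control, was at 4.94, 5.41 and 4.53 CPM in mock, siNegative and ASO-Neg, against 6.11, 5.61 and 10.2 in siSREBF1, ASO-SREBF1-S1 and ASO-SREBF1-S4. Its ratio of 0.54 (SE 0.23, edgeR adjusted p = 0.478) rested mostly on ASO-SREBF1-S4, and without that library it was 0.23. TP53INP1, a stress-induced partner of p53 in autophagy and death, and SUSD6, a membrane protein, overlapped between the sides (log2 ratios 0.24 and 0.13). TP53I11 (ENSG00000175274, chr11:44885903-44951306), a p53-inducible membrane protein, split the ASOs, at 45.5, 50.2 and 45.5 CPM in mock, siNegative and ASO-Neg, against 69.0, 36.1 and 66.4 in siSREBF1, ASO-SREBF1-S1 and ASO-SREBF1-S4. ASO-SREBF1-S1 was below every control and the other targeting libraries above them. Without ASO-SREBF1-S1 it was the only member past the threshold, with a log2 ratio of 0.52 (edgeR adjusted p = 0.0211), when 0.673% of all genes passed.

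**Figure D4:**
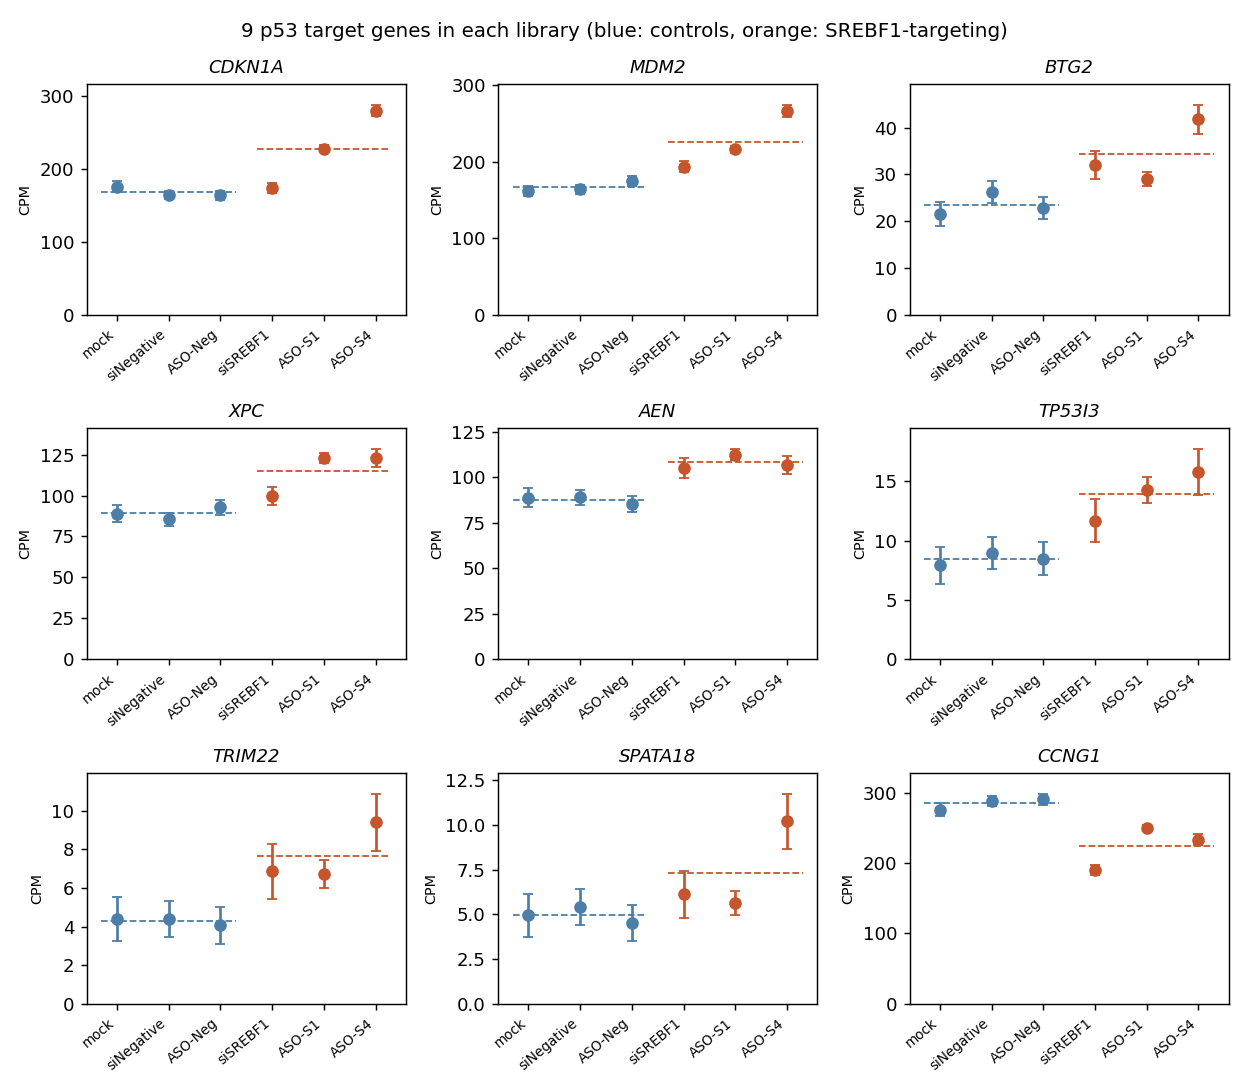
CPM of 9 p53 target genes in each library, with bars for the 95% counting interval (a normal approximation) and dashed lines for the mean of each side. Vertical axes start at 0. The targeting libraries lie above the controls for MDM2, BTG2, XPC, AEN, TP53I3, TRIM22 and SPATA18, while siSREBF1 is level with the controls for CDKN1A and the direction is the opposite for CCNG1.

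Among the 7 genes of metabolism, redox and stress signalling, 3 were higher and NINJ1 lower at an unadjusted p under 0.05 (backgrounds 4.93% and 5.3%). Their median log2 ratio was 0.30. TP53I3 (ENSG00000115129, chr2:24077433-24085861), a quinone oxidoreductase that generates reactive oxygen species, stood at 7.91 CPM with mock transfection, 8.95 with siNegative, 8.47 with ASO-Neg, 11.7 with siSREBF1, 14.3 with ASO-SREBF1-S1 and 15.8 with ASO-SREBF1-S4. All targeting libraries were above all controls, with means of 8.44 ± 0.519 and 13.9 ± 2.07 CPM (± SD over n = 3 libraries a side). The log2 ratio was 0.72 with an SE of 0.13 (edgeR adjusted p = 0.123). TRIM22 (ENSG00000132274, chr11:5689610-5737089), an antiviral ubiquitin ligase that interferon also induces, stood at 4.39 CPM with mock transfection, 4.40 with siNegative, 4.06 with ASO-Neg, 6.85 with siSREBF1, 6.73 with ASO-SREBF1-S1 and 9.40 with ASO-SREBF1-S4. It had the largest ratio of the members on low counts (log2 ratio 0.83, SE 0.17, edgeR adjusted p = 0.175).

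FDXR (ENSG00000161513, chr17:74862497-74873031), the reductase that feeds electrons to mitochondrial P450 enzymes and iron-sulphur cluster assembly, was at 24.1, 23.5 and 21.5 CPM in mock, siNegative and ASO-Neg, against 22.4, 33 and 34.0 in siSREBF1, ASO-SREBF1-S1 and ASO-SREBF1-S4. Both ASO libraries were above the controls and siSREBF1 was within them (log2 ratio 0.38, edgeR adjusted p = 0.419). NINJ1 (ENSG00000131669, chr9:93121496-93134251), which mediates the rupture of the plasma membrane in dying cells, was at 46.0, 43.1 and 39.9 CPM in mock, siNegative and ASO-Neg, against 35.3, 35.7 and 40.4 in siSREBF1, ASO-SREBF1-S1 and ASO-SREBF1-S4. It was lower in siSREBF1 and ASO-SREBF1-S1, while ASO-SREBF1-S4 lay among the controls (log2 ratio -0.21, edgeR adjusted p = 0.44). SESN1 (ENSG00000080546, chr6:108984309-109094846), a sestrin that restrains mTORC1, was at 28.2, 28.4 and 31.6 CPM in mock, siNegative and ASO-Neg, against 32.6, 26.1 and 41.4 in siSREBF1, ASO-SREBF1-S1 and ASO-SREBF1-S4. It was highest with ASO-SREBF1-S4 and lowest with ASO-SREBF1-S1.

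GDF15 (ENSG00000130513, chr19:18374731-18389176), a secreted stress cytokine, was at 215 CPM with mock transfection, 141 with siNegative, 145 with ASO-Neg, 152 with siSREBF1, 205 with ASO-SREBF1-S1 and 216 with ASO-SREBF1-S4. Mock and ASO-SREBF1-S4 were level, and the other controls lay below both, so ASO-SREBF1-S4 was higher against ASO-Neg and level against mock. TIGAR, which diverts glucose into the pentose phosphate route, was at 1.67 to 2.61 CPM with overlapping sides.

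ASO-SREBF1-S4 was the highest of the 6 libraries for 21 of the 33 members, where 21.3% of all genes had their highest value in it. ASO-SREBF1-S1 was the highest for 7 members (19.1% of all genes), siSREBF1 for 2 (19%), ASO-Neg for 2 (11.9%), mock for 1 (16.7%) and siNegative for none (12.1%). Mock was the lowest library for 11 members, where 15.8% of all genes had their lowest value in it. Without siSREBF1, the ASO libraries against the controls gave 18 members higher at an unadjusted p under 0.05, a background of 5.44%, and the median log2 ratio was 0.29. Without ASO-SREBF1-S4 there were 10 higher and the median was 0.17, where 10.4% of all genes had such a p in either direction. With chemistry (ASO or siRNA) as a term, which leaves out mock, 9 were higher, where 5.39% of all genes had such a p in either direction.

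The second comparison asked whether the siRNA pool and the ASOs differed. The p53 targets stood lower with siSREBF1 than with the ASO pair: 28 of the 33 log2 ratios were below 0, with a median of -0.21 against -0.002 over all genes. No member passed an adjusted p of 0.05 in edgeR, where 0.145% of genes did. At an unadjusted p under 0.05, 11 members were lower with siSREBF1, a background of 4.44%, and none was higher, a background of 4.41%. siSREBF1 was 1 library and took its spread from the other classes. SREBF1 itself was also lower in siSREBF1, at 54.9 CPM against 76.9 and 70.3 with the ASOs. The ASOs were used at 5 nM and the siRNA pool at 50 nM, so reagent type and dose cannot be told apart.

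The 11 genes were CDKN1A, GADD45A, CCNG1, PLK3, PHLDA3, MDM2, XPC, EDA2R, CYFIP2, TP53INP1 and FDXR, so 5 of them were in the arrest and growth group. CDKN1A differed by -0.55 on the log2 scale (95% interval -0.86 to -0.24, edgeR adjusted p = 0.240). The DESeq2 Wald test called CDKN1A alone among the members (adjusted p = 0.0374), where 0.827% of all genes were called. GADD45A differed by -0.63, EDA2R by -0.62, TP53INP1 by -0.60 and FDXR by -0.58. For AEN (-0.06, 95% interval -0.27 to 0.15), DDB2 (0.01, -0.21 to 0.23) and TNFRSF10B (-0.01, -0.22 to 0.21) the estimated difference was near 0, and the intervals leave room for differences of either sign.

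Each targeting library was then set against its own reagent control. These are ratios of 1 library to 1 library, with no test across cultures, a prior count of 2 and 95% intervals that cover counting error alone. A gene was named as past the size rule at 1.5-fold or more with at least 5 CPM in 1 of the libraries, and medians of these contrasts, for the members and for other lists, are over genes at that level. The contrasts of ASO-SREBF1-S1 and ASO-SREBF1-S4 share ASO-Neg, so a chance deviation of ASO-Neg would move both.

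With siSREBF1 over siNegative, TRIM22 was higher by 0.63 on the log2 scale (interval 0.20 to 1.08) and CCNG1 lower at -0.60 (-0.67 to -0.53). These were the only members past the size rule, where 1.78% of genes were past it upward and 1.65% downward. The median over the 32 members at 5 CPM was 0.09, against -0.004 over all genes at 5 CPM. The ratio was above 0 for 23 of the 33 members, where 49.1% of all genes at 5 CPM were above 0. TP53I11 (0.46), TP53I3 (0.38) and BTG2 (0.29) were the next highest at 5 CPM. CDKN1A differed little, at 0.08 (-0.00 to 0.15).

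With ASO-SREBF1-S1 over ASO-Neg, TP53I3 (0.75, interval 0.49 to 1.02), TRIM22 (0.72, 0.35 to 1.13) and FDXR (0.62, 0.46 to 0.79) were past the size rule upward and no member downward. Of all genes, 1.07% were past it upward and 1.75% downward. The median over the 32 members at 5 CPM was 0.26 against 0.01 over all genes. The ratio was above 0 for 25 of the 33 members, where 52.4% of all genes at 5 CPM were above 0. GADD45A and GDF15 were each at 0.50, and CDKN1A was at 0.47. TP53I11 was the lowest at -0.34 (-0.46 to -0.21).

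With ASO-SREBF1-S4 over ASO-Neg, 9 members were past the size rule upward and none downward, where 3.25% of genes were past it upward and 1.49% downward. They were TRIM22 (1.19), SPATA18 (1.15), TP53I3 (0.89), BTG2 (0.87), CDKN1A (0.77, interval 0.70 to 0.84), GADD45A (0.76), FDXR (0.66), CYFIP2 (0.66) and MDM2 (0.61, interval 0.54 to 0.68). RRM2B and GDF15 were just short of it at 0.57 each. The median over the 32 members at 5 CPM was 0.40 against -0.01 over all genes. The ratio was above 0 for 30 of the 33 members, where 47.4% of all genes at 5 CPM were above 0. ASCC3 (-0.51) and CCNG1 (-0.32) were the lowest.

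**Figure D5:**
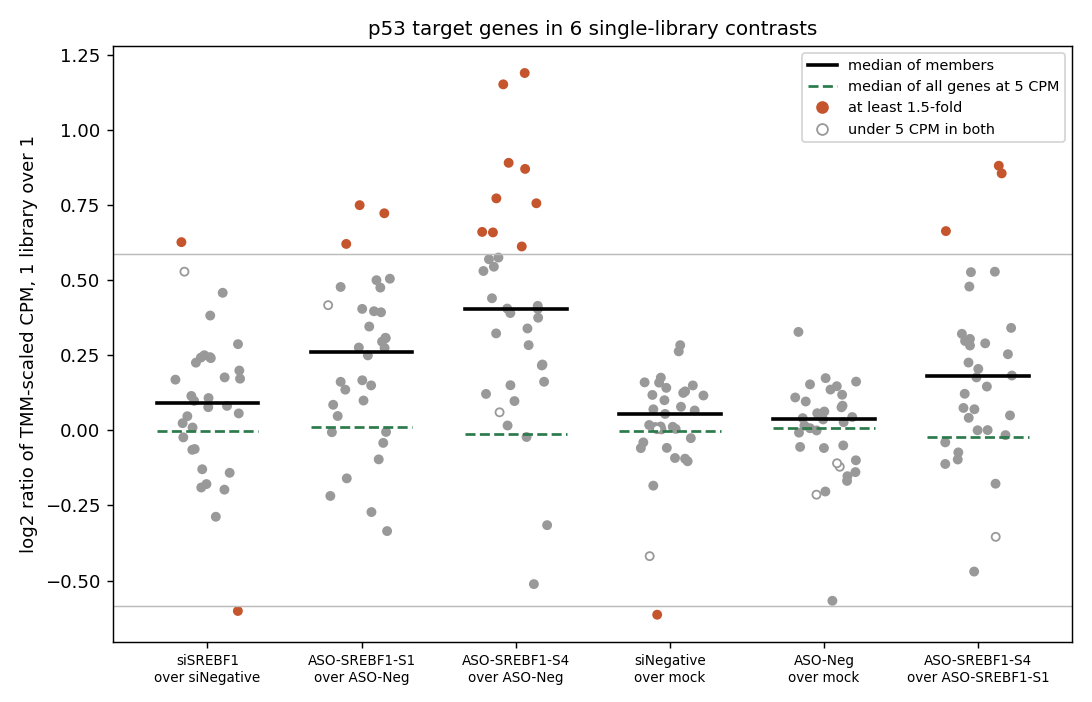
Log2 ratios of the 33 p53 target genes in 6 contrasts of 1 library over 1 library. Each point is a gene, open where both libraries were under 5 CPM and orange where past 1.5-fold (grey lines), the black bar is the median of the members at 5 CPM and the dashed green line the median of all genes at 5 CPM. The members' median is highest for ASO-SREBF1-S4 over ASO-Neg (0.40) and lowest for ASO-Neg over mock (0.04).

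The members differed little between the control reagents and mock. With siNegative over mock the median over 31 members was 0.05, with no member past the size rule upward (0.608% of genes) and GDF15 past it downward at -0.61 (0.25% of genes). With ASO-Neg over mock the median over 30 members was 0.04 and no member was past the size rule in either direction (0.189% of genes upward and 0.853% downward), with GDF15 the lowest at -0.57 and TP53INP1 the highest at 0.33. Both contrasts share mock. CDKN1A was slightly lower in both, at -0.09 and -0.10, and MDM2 was at 0.02 and 0.11.

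The ASOs against SREBF1 also differed from each other. With ASO-SREBF1-S4 over ASO-SREBF1-S1, TP53I11 (0.88, interval 0.77 to 0.99), SPATA18 (0.85, 0.57 to 1.15) and SESN1 (0.66, 0.53 to 0.80) were past the size rule upward, where 4.18% of genes were, and none downward, where 1.64% were. BTG2 and RRM2B followed at 0.53 each. MDM2 and CDKN1A were each 0.30 higher, and XPC (interval -0.07 to 0.07) and PHLDA3 (interval -0.07 to 0.07) were level. ASCC3 was lower at -0.47. SREBF1 itself was 0.13 lower on the log2 scale with ASO-SREBF1-S4 than with ASO-SREBF1-S1.

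The genes that act on p53 were largely level. CDKN2A, whose product ARF restrains MDM2, had 0 counts in every library. Of 24 genes listed as acting upstream of the targets, 22 were tested, with a median log2 ratio of 0.05. At an unadjusted p under 0.05, 1 was higher and none lower (backgrounds 4.93% and 5.3%). The 1 was RCHY1, another ubiquitin ligase for p53, at 20.1, 18.5 and 18.9 CPM in mock, siNegative and ASO-Neg, against 20.5, 24.9 and 23.0 in siSREBF1, ASO-SREBF1-S1 and ASO-SREBF1-S4. COP1, a further ligase, and the acetyltransferase CREBBP had log2 ratios of 0.15 and 0.12, with edgeR adjusted p = 0.541 and 0.565.

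A further list of 34 p53 targets outside the members, also chosen with earlier results of these data known, was set beside them. Of these, 28 were tested, 7 were higher and none lower at an unadjusted p under 0.05 (backgrounds 4.93% and 5.3%), none passed the adjusted threshold, and the median log2 ratio was 0.15. SESN2, a sestrin that ATF4 also induces, was at 11.7, 13 and 15.7 CPM in mock, siNegative and ASO-Neg, against 18.0, 24.1 and 18.9 in siSREBF1, ASO-SREBF1-S1 and ASO-SREBF1-S4 (log2 ratio 0.60, edgeR adjusted p = 0.237). PMAIP1, the pro-death protein NOXA, was at 11.1, 12.0 and 10.6 CPM in mock, siNegative and ASO-Neg, against 13.9, 15.5 and 14.6 in siSREBF1, ASO-SREBF1-S1 and ASO-SREBF1-S4 (log2 ratio 0.39, edgeR adjusted p = 0.263). BLOC1S2 and FBXO22 had log2 ratios of 0.25 and 0.19. BAX and BBC3, the classical death effectors of p53, were among the 34. BAX had a log2 ratio of 0.17 and BBC3 of -0.29, with overlapping sides, and they were named after their values were seen.

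The cell cycle genes that p53 is known to lower through p21 and the DREAM repressor complex were also set beside the members. This list too was chosen with earlier results of these data known. Of 20, all tested, 7 were lower and none higher at an unadjusted p under 0.05 (backgrounds 5.3% and 4.93%), 19 log2 ratios were below 0 and the median was -0.14. KIF20A, a mitotic kinesin, was at 126, 126 and 134 CPM in mock, siNegative and ASO-Neg, against 116, 98.6 and 93.3 in siSREBF1, ASO-SREBF1-S1 and ASO-SREBF1-S4 (log2 ratio -0.33, edgeR adjusted p = 0.271). MKI67, the proliferation marker, had a log2 ratio of -0.30, FOXM1, a transcription factor of mitotic genes, -0.26, and PLK1, a mitotic kinase, -0.17. None passed the adjusted threshold. The list's median was -0.12 for siSREBF1 over siNegative, -0.14 for ASO-SREBF1-S1 over ASO-Neg and -0.30 for ASO-SREBF1-S4 over ASO-Neg, the last with all 20 genes below 0. In ASO-Neg over mock 18 of the 20 were above 0, with a median of 0.13, so ASO-Neg stood high for these genes.

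Values of 3 other stress lists are given beside the members, and their part in the p53 target values was not tested. Of 9 NF-kB targets, 7 were higher at an unadjusted p under 0.05 (background 4.93%), with a median log2 ratio of 0.51. BIRC3, an inhibitor of apoptosis, rose (log2 ratio 1.56, edgeR adjusted p = 0.0442). The NF-kB list's median was 0.84 for siSREBF1 over siNegative, 0.34 for ASO-SREBF1-S1 over ASO-Neg and 0.36 for ASO-SREBF1-S4 over ASO-Neg. Of 11 ATF4 targets, CEBPG, CHAC1 and DDIT3 were higher at an unadjusted p under 0.05 (background 4.93%), with a list median of 0.13. The ATF4 list's median was 0.29 for siSREBF1 over siNegative, 0.25 for ASO-SREBF1-S1 over ASO-Neg and -0.14 for ASO-SREBF1-S4 over ASO-Neg. The 11 interferon-stimulated genes, a group to which TRIM22 also belongs, had none higher or lower at an unadjusted p under 0.05 (backgrounds 4.93% and 5.3%). Their log2 ratio was above 0 for 10 and below 0 for 1, with a median of 0.22, near the 0.23 of the members. For siSREBF1 over siNegative the interferon list's median was 0.15, while TRIM22 was at 0.63. Against ASO-Neg the list's median was 0.31 with ASO-SREBF1-S1 and -0.10 with ASO-SREBF1-S4, while TRIM22 was at 0.72 and 1.19.

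Other measures that set the libraries apart are given beside the members, and their part in the members' values was not tested. In bulk RNA, fewer cells of a type and less RNA per cell cannot be told apart. The summed level of the melanoma markers was 5957 CPM with ASO-Neg, 6374 with ASO-SREBF1-S1 and 5128 with ASO-SREBF1-S4. It was 7169 in mock, 5669 in siNegative and 5052 in siSREBF1. The 6 fibroblast markers summed to 699 CPM with ASO-Neg, 633 with ASO-SREBF1-S1 and 931 with ASO-SREBF1-S4. They summed to 664 in mock, 877 in siNegative and 749 in siSREBF1. All 13 mitochondrially encoded genes had a log2 ratio above 0 with ASO-SREBF1-S4 over ASO-Neg, 12 were below 0 with ASO-SREBF1-S1 and all 13 below 0 with siSREBF1 over siNegative.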

How the data were processed

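Read counts per gene, whole numbers, were deposited as 24 files, with 4 sequencing lanes for each of 6 libraries. The series text describes the lanes as technical replicates. Per the submitters' processing notes, the authors' alignment of the 75 bp read pairs used STAR 2.6.1a and GRCh38, beside FastQC. Their annotation is not given in the sources used here. The kit keeps strand, per the labels' protocols, and the reverse-strand column was taken, since the forward one held 6.47% to 7.79% of the counts on both. Between 80.65% and 81.82% of read pairs went to a named gene. The remainder, on 4 summary lines a file, stayed out of library sizes and tests. Chi-square over degrees of freedom was 1.018 to 1.047 for lanes within a library and 2.03 to 8.69 between libraries, so lanes were summed and each group was 1 library. GENCODE 44, the source of all names and positions, held 58207 of the identifiers and 99.93% of the counts.

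Tests ran in edgeR 4.0.16 (R 4.3.3). The quasi-likelihood F test was two-sided, after TMM and filterByExpr by side, with p-values adjusted by Benjamini-Hochberg over all 15123 genes tested at 0.05. The comparison of siSREBF1 with the ASO pair came from a fit with 3 classes. DESeq2 1.42.0 and limma 3.58.1 were alternatives. CPM, log2 ratios and intervals were computed here from the deposited counts. Intervals of single-library ratios are exact conditional binomial intervals at 95%, and they and the floor of 3 counts cover counting error only. On simulated counts over 14940 genes, 50 genes were set at each fold. The edgeR test of targeting against control libraries recovered 70% of those set at 1.5-fold and 100% of those set at 2-fold. For siSREBF1 against the ASO pair it recovered 52% and 94%. Recovery under 1.5-fold was not tested. All members but TP53I3 (1.65-fold) and TRIM22 (1.78-fold) lay in that range for targeting against control libraries. Recovery was summarised by fold only, not by a gene's level or by its spread among the targeting libraries. The recovered shares may therefore be too high for members with few reads, such as TIGAR. The same holds for members whose targeting libraries lay far apart, such as CDKN1A (SD 53.3 CPM, against 6.63 among controls).

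The members, the other gene lists and the rule for named genes were chosen with earlier results of these data known. The rule gave values in every library for CDKN1A and MDM2, for members at an unadjusted p under 0.05 in the comparison of targeting with control libraries and for members past the size rule in any contrast of single libraries. From each other list it took up to 4 genes by the smallest p. A gene that the rule also names is not reported here. Marker lists of melanoma cells, fibroblasts, keratinocytes, immune and endothelial cells were read as levels. The keratinocyte markers summed to 22.7 to 29.1 CPM, nearly all KRT10, and the endothelial markers to 37.7 to 57.2 CPM, nearly all KDR. DDX58 was matched under its current symbol RIGI.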

Additional observations from a re-analysis of the deposited data

Results flagged for a closer look

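Of the 33 members, 14 stood above their reagent control in one targeting library and below it in another. The 4 given here are those whose 95% counting intervals lay on opposite sides of 0. No share over all genes stands beside these counts, so they are not read as particular to the members. Each group is 1 library, so these differences were not tested. TP53I11 was higher with ASO-SREBF1-S4 and lower with ASO-SREBF1-S1 over the shared ASO-Neg, a difference of 0.88 on the log2 scale, and SESN1 likewise, a difference of 0.66. Against siSREBF1 over siNegative, where both were higher, the ratio with ASO-SREBF1-S1 differed by -0.79 for TP53I11 and by -0.47 for SESN1. PHLDA3 was lower with siSREBF1 and higher with both ASOs, a difference of 0.34 for ASO-SREBF1-S1 and of 0.34 for ASO-SREBF1-S4. ZMAT3 was lower with siSREBF1 and higher with ASO-SREBF1-S4, a difference of 0.36.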

How the results depend on the processing

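No paired analysis was possible because the replicate numbers mark sequencing lanes of 1 library, which were summed. For targeting against control libraries, the log2 ratios of all 18 members at an unadjusted p under 0.05 kept their direction under every alternative run. Those 18 were picked by p in these same data, so their kept direction is no independent support. Over all 33 members, 30 ratios were above 0 in the main fit, 27 with chemistry as a term and 28 without ASO-SREBF1-S4. The counts of calls moved more. For targeting against control libraries, the DESeq2 Wald test called 5 members higher in place of 0 and had 1 lower at an unadjusted p under 0.05. Without a filter on low counts 10 were called higher and 1 lower, where 509 of 31378 genes were called, and with chemistry as a term 9 were higher and 1 lower at an unadjusted p under 0.05. Leaving out each library in turn gave 0 to 1 called higher, 9 to 18 higher and 1 to 2 lower at an unadjusted p under 0.05, and a median log2 ratio of 0.171 to 0.292. Over all genes these fits called 1 to 103, and 6.18% (without mock) to 15.6% (without ASO-SREBF1-S1) had an unadjusted p under 0.05. For siSREBF1 against the ASO pair, the DESeq2 Wald test called 1 member lower, where 125 of 15123 genes were called. Without a filter 5 were called lower, where 380 of 31378 genes were called, and 1 was higher at an unadjusted p under 0.05, where 6.45% of genes had such a p in either direction. DESeq2 size factors, limma-voom and the unstranded column gave counts within 1.5 times those reported. The cause of these differences was not tested.

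In the contrasts of single libraries, a 2-fold rule left 0 members past it for siSREBF1 in either direction, 0 for ASO-SREBF1-S1, 2 for ASO-SREBF1-S4, 0 for siNegative over mock and 0 for ASO-SREBF1-S4 over ASO-SREBF1-S1. For this count and those below under other settings or in single lanes, no share over all genes is given. They are therefore not read as particular to the members. With 10 CPM as the minimum, siSREBF1 had 0 higher, and the ASO-SREBF1-S1 median was 0.208. With library totals in place of TMM, siSREBF1 had 0 lower and the ASO-SREBF1-S4 median was 0.472. Single lanes, which hold only part of the reads, gave siSREBF1 3, 0 and 3 members higher in lanes 1, 2 and 4 and 2 and 0 lower in lanes 1 and 3. For ASO-SREBF1-S1 they gave 5, 5 and 1 higher in lanes 1, 2 and 4, with medians of 0.208, 0.211, 0.200 and 0.194 in lanes 1 to 4, each below the summed value of 0.261. The ASO-SREBF1-S4 median was 0.455 in lane 3. siNegative over mock had 0 lower in lanes 1 and 4, 1 higher in lane 4 and medians of 0.003 and 0.002 in lanes 3 and 4. ASO-Neg over mock had 1 higher and 1 lower in lane 2 and 2 lower in lane 4. ASO-SREBF1-S4 over ASO-SREBF1-S1 had a median of 0.107 in lane 2 and 5 higher in lane 4. For the response element, 3 members matched with 0 mismatches and 15 with up to 2 within 2500 bases, and within 1000 bases 1 matched with 0 mismatches and 4 with up to 1. Depth limits the members with few reads: TIGAR, SPATA18 and TRIM22 had counting intervals wide enough that their ratios are the least precise.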
